A study of Zanthoxylum armatum with 24 samples.

Results

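A set of 132 genes of *Zanthoxylum armatum* flower buds was chosen by its measured levels, which were high at the last floral stage of both sexes and lower at all earlier stages. For each gene the group means of log2(FPKM + 1) were compared, where FPKM is the read count of a gene divided by its length and by the reads of the library. A gene was a member when M4 and F4 each exceeded all of M1, M2, M3, F1, F2 and F3 by at least 1.5, and when M4 and F4 differed by less than 1. Among the 38734 genes that reached 1 FPKM in at least 3 libraries, 134 met these thresholds, and Zardc31704(*ZaBAM3*) and Zardc02402(*ZaAG*) were left out, which gave the 132 members. Of the other genes, 47 met the margin in both sexes with M4 and F4 differing by 1 or more, 310 met it in M4 alone and 137 in F4 alone.

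The groups were M4 and F4, the male and female flowers in development and maturation, set against M1 and F1 (undifferentiated primordia), M2 and F2 (initiation of the primordia) and M3 and F3 (differentiation of the primordia). All groups came from planted dioecious trees of a single site, without treatment. Of 24 libraries 23 were used, 2 of M2 and 3 of each other group, because the values given for the third M2 library covered only 183 genes and 182 of these were equal to those of M3 replicate 1. According to the methods of the study, each library pooled buds from several trees of the same sex, so the SD describes pools and not single trees, and whether replicates or stages shared trees was not given. Stage and season of collection cannot be told apart, since the stages followed one another through a collection that ran from autumn to spring. In such bulk samples, a lower value can come from fewer cells of a type or from less RNA per cell, and these cannot be told apart.

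Flower maturation follows the laying down of organ primordia. Organ identity is set by MADS-box transcription factors. In the ABCDE model of *Arabidopsis*, B-class proteins such as PI and AP3 act in petals and stamens, C-class AG in stamens and carpels, and D-class STK with SHP in ovules. The E-class SEPALLATA proteins join the complexes of the other classes, and they are needed for the organs of both male and female whorls.

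The relative depth of the libraries, read from the steps of FPKM in weak genes and set to that of M1 replicate 1, was 0.854 to 1.09. Neither read counts nor counting intervals can be given from FPKM values. The sum of FPKM was 931461 to 949522 in M4 and 1034429 to 1041906 in F4, and it was highest in F3, at 1087286 to 1109118. RNA integrity, as the study gives it, was lower in every F3 library than in every F1 and M3 library. It was also lower in M3 than in M1 and in F4 than in M4, and the mapped share of reads was lowest in F3. Comparisons between these groups therefore carry a difference in RNA integrity as well, whose part was not tested. The labelled sex was set beside marker genes. The study listed these MADS-box genes because they differed between its male and female samples. Their levels describe the labelled sexes and are no independent check of the labels. The summed level of the 11 *PI* and *AP3* genes was 162 to 184 FPKM in M4 and 13.2 to 15.9 FPKM in F4, and that of the 4 *STK* and *SHP1* genes was 13.3 to 13.7 FPKM in M4 and 36.0 to 42.2 FPKM in F4. Most of the latter sum came from Zardc10218(*ZaSHP1*), which averaged 12.2 FPKM in M4 and 29.6 FPKM in F4. At stage 1 the sum over the *PI* and *AP3* genes was 4.07 to 5.09 FPKM in M1 and 0.326 to 0.706 FPKM in F1, and that over 2 *AP1* genes was 0.126 to 0.619 FPKM in M1 and 0.648 to 1.67 FPKM in F1. The *PI* and *AP3* sum at stage 1 came almost wholly from Zardc17043(*ZaPI*), with means of 4.44 FPKM in M1 and 0.454 FPKM in F1. Of the 11 genes, 8 in M1 and 9 in F1 were at 0 in all libraries.

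All of the 132 members were above 0 in every stage 4 library, and each of the 6 stage 4 libraries of a member was above each of its 17 earlier libraries. This separation follows from the selection and carries no test. The median member had a mean of 32.2 FPKM in M4 and 27.4 FPKM in F4, while the medians at the earlier stages were 1.97 FPKM in M1, 2.29 in M2, 3.09 in M3, 2.13 in F1, 2.06 in F2 and 3.83 in F3. At least 100 FPKM on average was reached by 30 members in M4 and by 18 in F4, of which 17 reached more than 100 FPKM in both, and 22 members stayed under 10 FPKM in both. The members varied widely at the earlier stages, where 104 of them reached 1 FPKM in at least 3 of the 17 libraries, 66 in all 17, and 28 in fewer than 3. These 28 passed the filter on low values only with their stage 4 libraries, so that counts over the members do not stand for genes measured well at every stage.

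**Figure D1:**
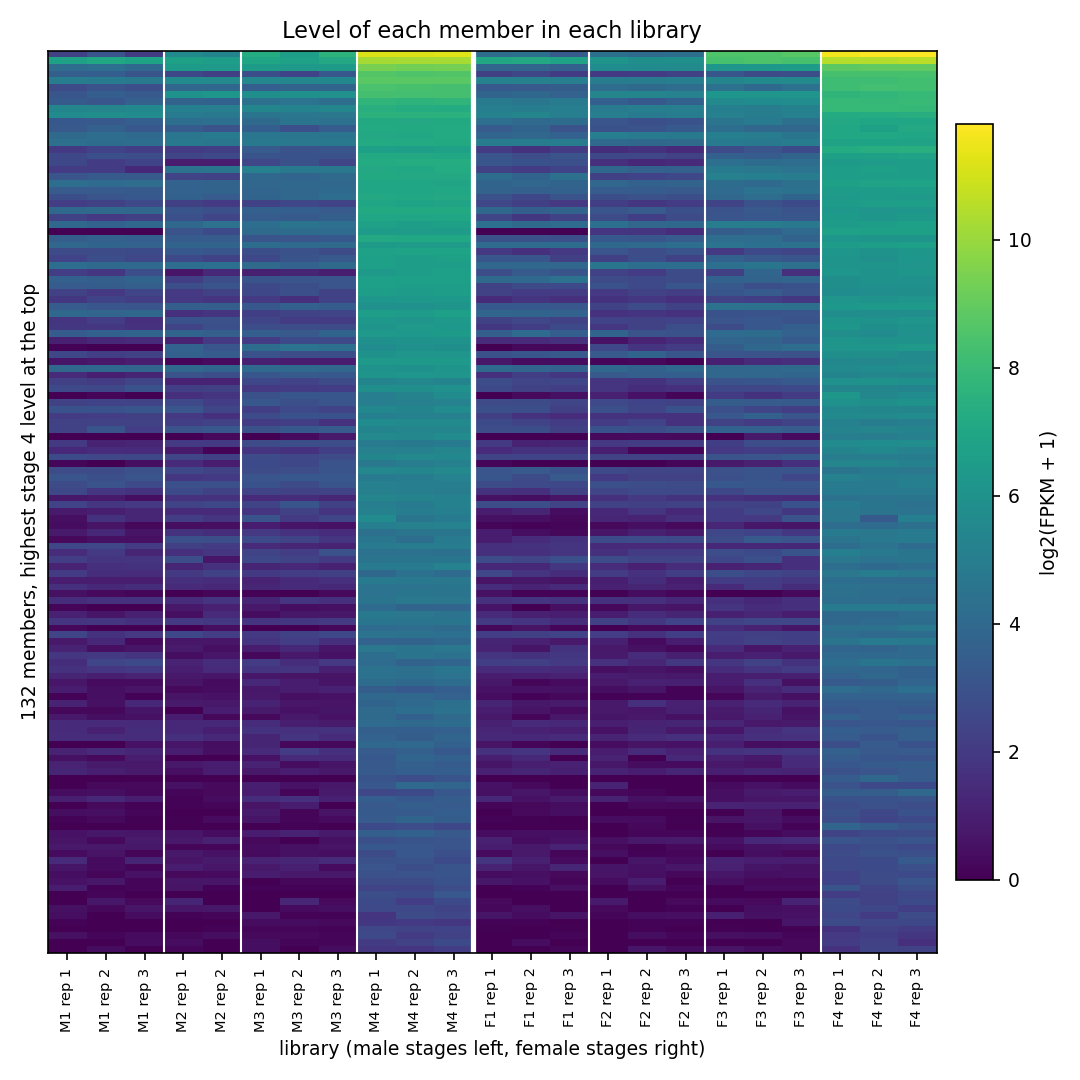
Level of the 132 members (rows, ordered by their mean at stage 4) in the 23 libraries (columns, M1 to M4 on the left and F1 to F4 on the right), as log2(FPKM + 1) in colour. In every row the 3 M4 and the 3 F4 columns are the brightest, and many rows are at or near 0 at stage 1.

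Together the members took 1.27 ± 0.00695% of all FPKM in M4 and 1.13 ± 0.0381% in F4 (SD, n = 3 each). Their summed FPKM overlapped between the sexes, at 11725 to 12080 in M4 and 11382 to 12151 in F4. The total FPKM was higher in F4, so the shares do not show a higher level of the members in males. Before stage 4 the share of the members was 0.0713% in M1, 0.0955% in M2, 0.118% in M3, 0.0772% in F1, 0.0723% in F2 and 0.165% in F3. A single gene, Zardc47261, held a good part of it, since the share without it was 1.02% in M4 and 0.805% in F4. The median coefficient of variation of the members between libraries was 6.03% in M4 and 7.14% in F4, against 16.0 to 22.9% in the earlier groups. The selection took genes that were high at stage 4 and low before, and the spread was not compared at equal levels. Nothing is therefore read from this contrast about the stages.

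**Figure D2:**
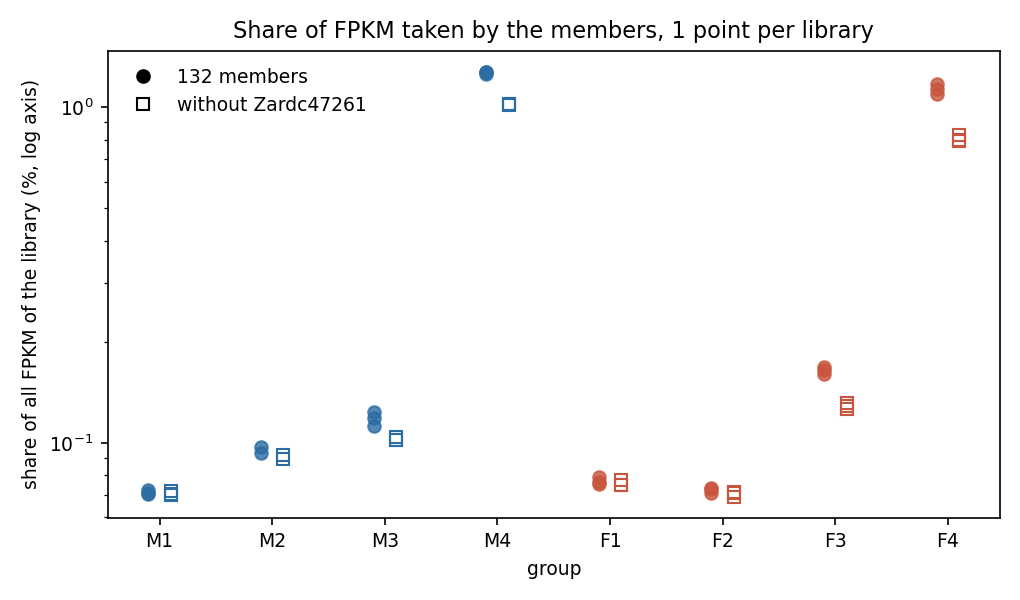
Share of the FPKM of each library taken by the 132 members (filled circles) and by the members without Zardc47261 (open squares), in %, on a log axis, with 1 point per library for the male (blue) and female (red) groups. The libraries of M4 lie at 1.26 to 1.27% and those of F4 at 1.09 to 1.17%, and all earlier libraries are at or below 0.168%.

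The margin over the highest earlier group ran between 1.51 and 4.98 on the log2 scale with a median of 2.10, and it was at least 3 in 15 members and at least 4 in 3 members. As a ratio of mean FPKM, the lower of M4 and F4 was at the median 5.73 times the highest earlier group. This highest earlier group was at stage 3 for 87 members (F3 for 63, M3 for 24), at stage 1 for 34 members (M1 for 21, F1 for 13) and at stage 2 for 11 members (M2 for 8, F2 for 3). At stage 4, M4 was above F4 in 94 members and below F4 in 38. The median of M4 minus F4 was 0.32 over the members and 0.005 over all tested genes. Both descriptions use the values of the selection, which kept this difference under 1.

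Of the 131 genes listed by the study, 124 were tested and 2 were members, both of them *SEPALLATA* genes. The listed Zardc31704(*ZaBAM3*) and Zardc02402(*ZaAG*) also met the thresholds but had been left out. In *Arabidopsis*, SEP1 and SEP2 are E-class partners with overlapping roles in all floral organs. Zardc28804(*ZaSEP2*) was assayed by the study with the primer pair shown here, the designed sequence that the sources give for a member, which marks the transcript measured.
Zardc28804 forward: atcttcttggagaggatttggga
Zardc28804 reverse: agaataaactgcgtcttggtgga

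Zardc28804(*ZaSEP2*) was listed at 0 in all 3 M1 libraries, and it had 7.06 and 5.39 FPKM in M2, 16.0, 17.2 and 16.5 FPKM in M3, and 89.3, 89.2 and 88.6 FPKM in M4. In females it was listed at 0 in all 3 F1 libraries, and it had 2.51, 2.49 and 1.83 FPKM in F2, 10.02, 11.9 and 15.6 FPKM in F3, and 106, 105 and 105 FPKM in F4. In each sex no library of a later stage overlapped with one of an earlier stage, so this gene stepped up at each stage and not only at the last. Zardc32032(*ZaSEP1*) had 0.0955, 0 and 0 FPKM in M1, 12.04 and 7.90 FPKM in M2, 17.1, 21.9 and 18.7 FPKM in M3, and 52.8, 60.0 and 58.5 FPKM in M4. Its values were 0, 0.187 and 0.184 FPKM in F1, 4.63, 2.52 and 3.28 FPKM in F2, 10.2, 14.6 and 17.9 FPKM in F3, and 70.5, 72.6 and 79.9 FPKM in F4. The stages of each sex did not overlap in this gene either, and both genes were higher in every F4 library than in every M4 library.

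Differences among the earlier groups were no criterion of the selection, but the level of each earlier group entered it as an upper limit, so tests among these groups are not independent of it. Tests were made with limma on log2(FPKM + 1) over all 38734 genes, and a gene was called when its fold change reached 1 on the log2 scale with a Benjamini-Hochberg adjusted p no greater than 0.05. Zardc28804 averaged 16.6 ± 0.629 FPKM in M3 (SD, n = 3) and was listed at 0 in M1, and it was called higher in M3*vs.*M1 (limma adjusted p = 9.07e-16). In F3 it averaged 12.5 ± 2.85 FPKM (SD, n = 3) and was listed at 0 in F1. It was called higher in F3*vs.*F1 (limma adjusted p = 5.42e-15). The spread behind both p-values was taken over all 8 groups, and M1 and F1, listed at 0, add none to it. Zardc32032 was called higher in M3*vs.*M1 with a log2 fold change of 4.29 ± 0.18 (SE; limma adjusted p = 2.56e-13), and in F3*vs.*F1 with 3.73 ± 0.18 (SE; limma adjusted p = 2.58e-12). Each of these differences was seen in 3 of 3 libraries.

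Between the sexes the *SEP* members differed at stage 2. Zardc32032 averaged 9.97 ± 2.93 FPKM in M2 (n = 2) and 3.48 ± 1.07 FPKM in F2 (SD, n = 3), a log2 fold change in M2*vs.*F2 of 1.29 ± 0.20 (SE; limma adjusted p = 7.88e-05). Zardc28804 averaged 6.23 ± 1.19 FPKM in M2 (n = 2) and 2.28 ± 0.388 FPKM in F2 (SD, n = 3), a log2 fold change of 1.14 ± 0.13 (SE; limma adjusted p = 3.04e-06), which was 0.97 and no longer called without M2 replicate 1. Both M2 libraries were above all F2 libraries for each gene. At stage 3 the log2 fold changes in M3*vs.*F3 were 0.40 ± 0.12 for Zardc28804 (SE; limma adjusted p = 0.0112) and 0.44 ± 0.18 for Zardc32032 (SE; limma adjusted p = 0.0577), under the fold threshold. The sex by stage interaction, (M3 − M1) − (F3 − F1), was 0.40 ± 0.17 and 0.56 ± 0.25 (SE; limma adjusted p = 0.114 and 0.145) and was called in neither gene. It compares stages 1 and 3 and leaves out stage 2, where both genes were called higher in males.

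**Figure D3:**
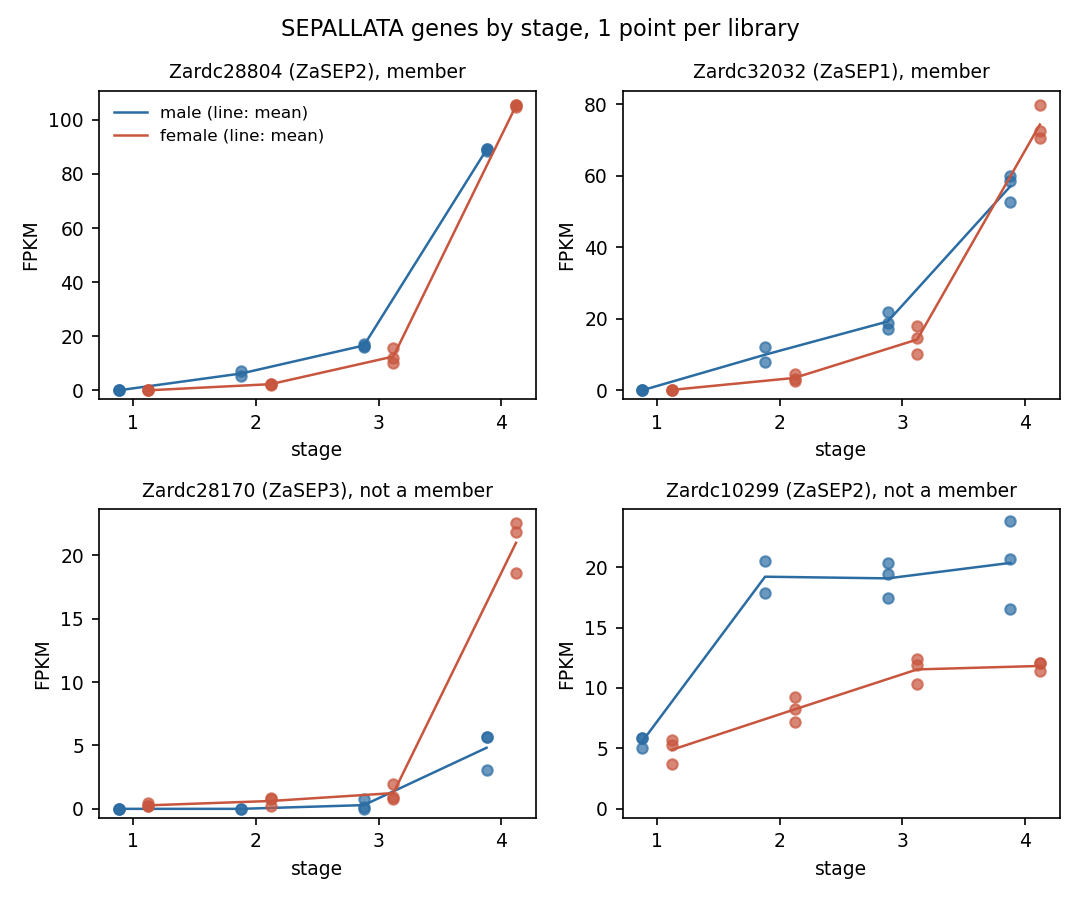
FPKM of the 4 *SEPALLATA* genes that the study listed, by stage, with 1 point per library and lines through the group means of males (blue) and females (red). The members in the upper panels reach 88.6 to 106 FPKM (Zardc28804) and 52.8 to 79.9 FPKM (Zardc32032) at stage 4, while Zardc28170 is high in F4 and Zardc10299 is level after stage 2 in males.

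The remaining *SEP* genes did not meet the selection. Zardc28170(*ZaSEP3*) averaged 4.82 ± 1.51 FPKM in M4 and 21.0 ± 2.11 FPKM in F4 (SD, n = 3 each), and with a margin of 1.37 and an M4 minus F4 of -1.95 it missed both thresholds. It was called higher in M4*vs.*M3 (log2 fold change 2.18 ± 0.24, SE; limma adjusted p = 2.65e-07) and in F4*vs.*F3 (3.32 ± 0.24, SE; limma adjusted p = 5.87e-10). Zardc10299, also annotated as *ZaSEP2*, averaged 20.4 ± 3.63 FPKM in M4 and 19.1 ± 1.504 FPKM in M3, and 11.8 ± 0.394 FPKM in F4 and 11.5 ± 1.08 FPKM in F3 (SD, n = 3 each). Its log2 fold changes were 0.08 ± 0.13 in M4*vs.*M3 and 0.04 ± 0.13 in F4*vs.*F3 (SE; limma adjusted p = 0.694 and 0.869). The higher level in males at stage 2 was not particular to the members. Zardc10299 had 20.5 and 17.9 FPKM in M2, against 9.27, 8.24 and 7.17 FPKM in F2. The sum over the 2 *AP1* genes was 33.0 to 35.0 FPKM in M2 and 9.29 to 13.1 FPKM in F2. Zardc28170 went the other way, with 0 FPKM in both M2 libraries and 0.187 to 0.866 FPKM in F2.

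Among the members without a gene name in the sources used here, Zardc47261 had the highest level at stage 4. It had 4.05, 7.65 and 3.26 FPKM in M1, 48.8 and 38.8 FPKM in M2, 160, 98.6 and 195 FPKM in M3, and 2313, 2302 and 2385 FPKM in M4. Its female values were 17.7, 19.2 and 9.53 FPKM in F1, 19.5, 16.6 and 18.0 FPKM in F2, 376, 373 and 425 FPKM in F3, and 3068, 3485 and 3583 FPKM in F4. The male stages did not overlap and increased at each step, whereas F1 and F2 overlapped and the female increase began at stage 3. It was called higher in M3*vs.*M1 (log2 fold change 4.68 ± 0.25, SE; limma adjusted p = 8.88e-12) and in F3*vs.*F1 (4.63 ± 0.25, SE; limma adjusted p = 1.26e-11). The order of the sexes alternated. Zardc47261 was lower in males in M1*vs.*F1 (log2 fold change -1.47 ± 0.25, SE; limma adjusted p = 0.000125) and in M3*vs.*F3 (-1.42 ± 0.25, SE; limma adjusted p = 0.000136). It was higher in males in M2*vs.*F2 (1.23 ± 0.28, SE; limma adjusted p = 0.00278), and this call rested on M2 replicate 1, without which the value was 1.07 with an adjusted p of 0.0524 by limma.

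Zardc48070, the second highest, had 109, 134 and 114 FPKM in M1, 104 and 97.5 FPKM in M2, 126, 106 and 138 FPKM in M3, and 1196, 1221 and 1217 FPKM in M4. In females it had 133, 138 and 111 FPKM in F1, 68.0, 58.3 and 57.0 FPKM in F2, 330, 362 and 325 FPKM in F3, and 1450, 1377 and 1527 FPKM in F4. The libraries of M1 and M3 overlapped, while those of F3 were all above those of F1 and of M3. It was called higher in F3*vs.*F1 (log2 fold change 1.41 ± 0.10, SE; limma adjusted p = 4.68e-10) and lower in M3*vs.*F3 (-1.46 ± 0.10, SE; limma adjusted p = 6.28e-10). Zardc42353, the third, averaged 17.3 FPKM in M1, 82.7 in M2, 84.8 in M3 and 641 in M4, and 12.6 FPKM in F1, 51.1 in F2, 78.0 in F3 and 478.4 in F4. It was called higher in M3*vs.*M1 (log2 fold change 2.23 ± 0.07, SE; limma adjusted p = 2.62e-15) and in F3*vs.*F1 (2.54 ± 0.07, SE; limma adjusted p = 4.92e-16).

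The widest margins belonged to Zardc30748, Zardc41922 and Zardc28343, at 4.98, 4.65 and 4.13. Zardc30748 had 10.9, 10.6 and 7.34 FPKM in M1, 4.81 and 3.76 FPKM in M2, 6.15, 4.23 and 8.09 FPKM in M3, and 394, 374 and 385 FPKM in M4. Its female values were 3.71, 4.78 and 3.21 FPKM in F1, 3.04, 3.28 and 3.92 FPKM in F2, 8.06, 5.65 and 6.26 FPKM in F3, and 327, 329 and 329 FPKM in F4. The earlier stages of this gene stayed at or below 10.9 FPKM in every library, and the libraries of M1 were above those of F1. Zardc41922 was listed at 0 in all M1 and F1 libraries and did not exceed 0.794 FPKM at the other earlier stages, and it had 45.7, 43.4 and 50.8 FPKM in M4 and 32.3, 30.0 and 34.2 FPKM in F4. Zardc28343 did not exceed 2.16 FPKM before stage 4 and averaged 81.3 ± 0.417 FPKM in M4 and 45.1 ± 2.13 FPKM in F4 (SD, n = 3 each). No member was at 0 in all 17 earlier libraries.

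At the edges of the selection, Zardc09975 was just inside the margin with 1.51 and the non-member Zardc23019 just outside it with 1.497. Zardc48576 was just inside the limit on the difference between M4 and F4 with 0.98, and the non-member Zardc07016 just outside it with 1.02. Published gene IDs were carried by 129 members, and the other 3 members (2.27%) had IDs added by the authors of the study, as did 9.74% of the tested genes. IDs within 3 of one another were found in 3 pairs, Zardc28830 with Zardc28831, Zardc41338 with Zardc41339, and Zardc48576 with Zardc48578. Zardc41338 averaged 9.81 ± 1.28 FPKM in M4 and 9.85 ± 1.31 FPKM in F4, near the 11.9 ± 1.64 and 9.43 ± 1.80 FPKM of Zardc41339 (SD, n = 3 each). By contrast, Zardc28830 averaged 136 ± 4.02 FPKM in M4 and 83.8 ± 4.80 FPKM in F4, while Zardc28831 averaged 23.8 ± 1.18 FPKM in M4 and 13.7 ± 1.56 FPKM in F4 (SD, n = 3 each). Genes with such neighbouring IDs may be near-identical copies that share reads, so their separate levels are uncertain.

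Whether the members changed before maturation was asked with M3*vs.*M1 and F3*vs.*F1. In M3*vs.*M1, 17 members (12.9%) were called higher, against 2.77% of all tested genes, and 5 members (3.79%) were called lower, against 3.45% of all tested genes. In F3*vs.*F1, 28 members (21.2%) were called higher, against 3.04% of all tested genes, and 0 were called lower with limma, against 3.48% of all tested genes. At an unadjusted p under 0.05, 6 members were lower in F3*vs.*F1 and 67 were higher, and the largest number called lower under any alternative was 2. The median log2 fold change of the members was 0.27 in M3*vs.*M1 and 0.41 in F3*vs.*F1, and over all tested genes it was 0.004 and 0. The selection limited the levels of M1, M3, F1 and F3, so nothing is read from the distance between the members' shares and those of all tested genes, here or in the comparisons of the sexes. Under a test against the fold threshold itself, 11 members remained called in M3*vs.*M1 and 9 in F3*vs.*F1.

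Both comparisons called 14 of the members higher, among them Zardc28804, Zardc32032, Zardc47261 and Zardc42353. The other 10 changed by 1.02 to 3.08 on the log2 scale in M3*vs.*M1 and by 1.14 to 2.41 in F3*vs.*F1. A further 3 were called in M3*vs.*M1 alone, with log2 fold changes of 1.01 to 1.27 there and of 0.86 to 0.92 in F3*vs.*F1, just under the threshold. In F3*vs.*F1 alone 14 were called, with 1.03 to 1.72 there and -0.38 to 0.94 in M3*vs.*M1. Being called in a single sex does not show a difference between the sexes, which the interaction tests. In total 31 of the 132 members were called higher between stages 1 and 3 in at least 1 sex. Such joint calls were not counted over all tested genes, so nothing about the members is read from these joint numbers. Those called lower in males were led by Zardc30943 and Zardc24893. Zardc30943 had 3.62, 4.39 and 4.57 FPKM in M3, against 15.1, 13.4 and 14.4 FPKM in M1 (log2 fold change -1.56 ± 0.08, SE; limma adjusted p = 9.39e-12). Zardc24893 had 0.189, 0.723 and 0.488 FPKM in M3, against 2.62, 3.06 and 2.55 FPKM in M1 (-1.37 ± 0.16, SE; limma adjusted p = 7.22e-07). The M3 libraries lay below the M1 libraries in both genes, which then reached 94.4 ± 5.60 and 20.2 ± 1.90 FPKM in M4 (SD, n = 3 each), so that their course dipped before maturation. All 5 members called lower in males also had negative log2 fold changes in F3*vs.*F1, of -0.85 to -0.10, none of which was called.

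**Figure D4:**
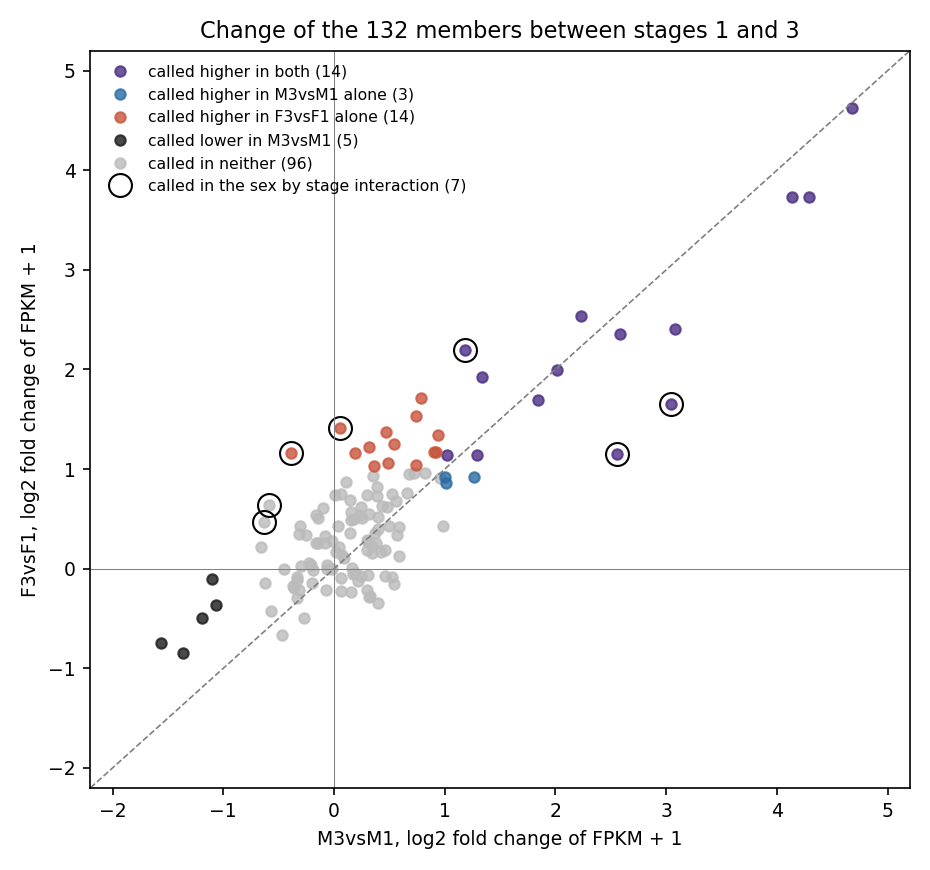
Log2 fold change (FPKM + 1) of the 132 members in M3*vs.*M1 (horizontal) and in F3*vs.*F1 (vertical), coloured by the call, with rings around the 7 members called in the interaction and a dashed line of equal change. The 2 *SEP* members and Zardc47261 lie at the upper right, apart from the rest of the 14 called higher in both sexes, and 96 members are called in neither comparison.

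The sexes were compared at each of the 3 earlier stages. In M1*vs.*F1, 1 member (0.758%) was called higher, against 2.58% of all tested genes, and 2 members (1.52%) were called lower, against 1.35% of all tested genes. In M2*vs.*F2, 7 members (5.30%) were called higher, against 3.72% of all tested genes, and 1 member (0.758%) was called lower, against 1.10% of all tested genes. In M3*vs.*F3, 2 members (1.52%) were called higher, against 3.66% of all tested genes, and 9 members (6.82%) were called lower, against 2.35% of all tested genes. The median log2 fold change over the members was -0.01, 0.08 and -0.18 at stages 1, 2 and 3, and 98 of the 132 members had a lower mean in M3 than in F3. Over all tested genes the medians were 0 at stages 1 and 2 and -0.002 at stage 3. At stage 4, M4 was above F4 in 94 members, a count that comes from the selection. The selection also limited M3 and F3, and the share of all tested genes with either order was not counted. Nothing is therefore read from these counts or from their opposite order. F3 had the highest sums of FPKM, the lowest mapped share of reads and a lower RNA integrity than M3. Its depth, 0.854 to 0.943, overlapped with the 0.904 to 0.946 of M3. The part of these in the stage 3 counts was not tested beyond quantile normalization, under which 11 members were called as well. The counts moved with single libraries, since 5 members were called in M1*vs.*F1 without F1 replicate 2 and 5 in M2*vs.*F2 without M2 replicate 1. With the test against the fold threshold itself, 1, 0 and 2 members were called at stages 1, 2 and 3, and at an unadjusted p under 0.05 that test gave 2, 1 and 4.

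**Figure D5:**
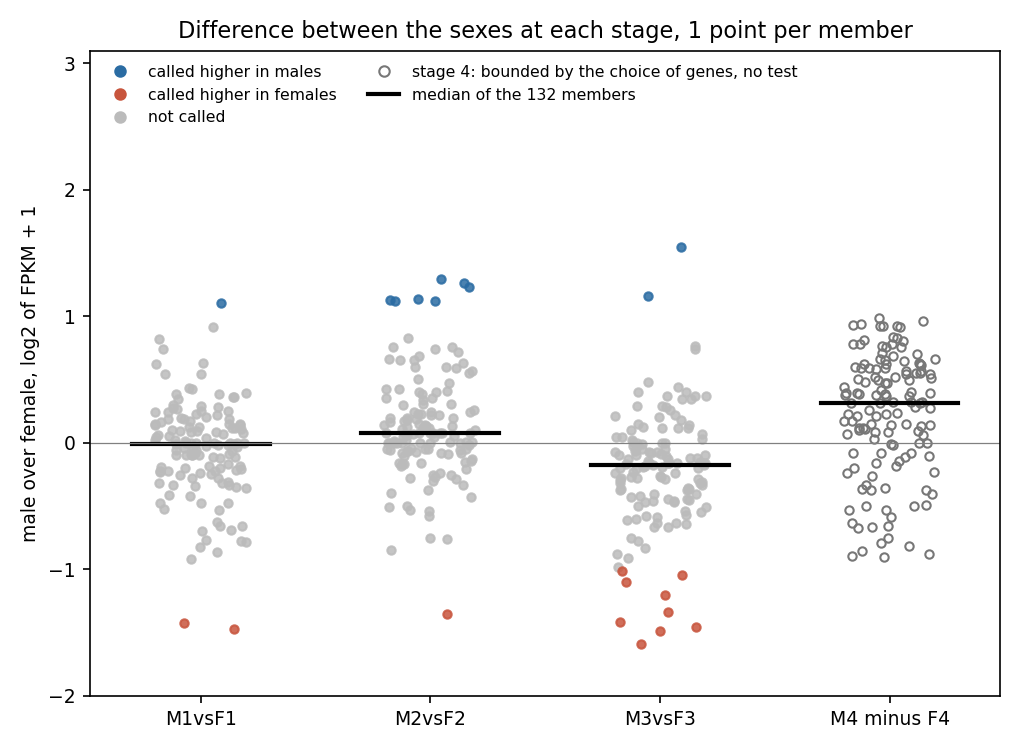
Difference between the sexes (male over female, log2 of FPKM + 1) for the 132 members at each stage, with 1 point per member, colours for members called higher in males (blue) or in females (red), and a bar at the median. The medians are -0.01, 0.08 and -0.18 at stages 1 to 3 and 0.32 at stage 4, where open points stand for values that the selection held within 1.

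Members without a gene name also differed between the sexes. At stage 1, Zardc30748 was higher in males (log2 fold change 1.11 ± 0.17, SE; limma adjusted p = 5.15e-05), with 7.34 to 10.9 FPKM in M1 and 3.21 to 4.78 FPKM in F1. Zardc34307 had 9.09, 8.02 and 11.2 FPKM in M1, against 27.8, 24.2 and 28.5 FPKM in F1, and was called lower (-1.42 ± 0.10, SE; limma adjusted p = 3.31e-09). The libraries of the sexes did not overlap in either gene. At stage 2, Zardc06065 had 18.0 and 18.7 FPKM in M2, against 7.79, 6.44 and 6.97 FPKM in F2 (log2 fold change 1.27 ± 0.14, SE; limma adjusted p = 1.31e-06). Zardc02603 had 0.621 and 1.57 FPKM in M2, against 4.04, 3.33 and 5.57 FPKM in F2 (-1.36 ± 0.41, SE; limma adjusted p = 0.0216), and this call was lost without M2 replicate 1 (-1.03, adjusted p = 0.223) and without F2 replicate 3 (-1.19, adjusted p = 0.0746).

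At stage 3, Zardc43737 had 4.80, 6.57 and 4.57 FPKM in M3, against 18.7, 16.9 and 17.9 FPKM in F3 (log2 fold change -1.59 ± 0.12, SE; limma adjusted p = 5.99e-09). Zardc02603 had 1.05, 1.33 and 1.01 FPKM in M3, against 3.70, 13.4 and 2.13 FPKM in F3 (-1.49 ± 0.37, SE; limma adjusted p = 0.00308). One F3 library stood high in this gene, and without F3 replicate 2 the log2 fold change was -0.85 and was not called. The call was also lost in a fit of M3 and F3 alone. In the opposite direction, Zardc47642 had 5.36, 4.87 and 7.21 FPKM in M3, against 0.830, 1.13 and 2.13 FPKM in F3 (1.55 ± 0.19, SE; limma adjusted p = 2.03e-06). Zardc16538 had 6.74, 7.95 and 8.05 FPKM in M3, against 3.21, 2.28 and 3.09 FPKM in F3 (1.16 ± 0.22, SE; limma adjusted p = 0.000346), a call that was lost with a pseudocount of 0.1. The M3 libraries were above the F3 libraries in both, and at stage 4 the means of both were higher in F4, at 30.2 in M4 and 39.2 FPKM in F4 for Zardc47642 and at 40.0 in M4 and 57.3 FPKM in F4 for Zardc16538.

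The interaction asked whether the change between stages 1 and 3 differed between the sexes. It was called higher in 2 members (1.52%), against 1.61% of all tested genes, and lower in 5 members (3.79%), against 1.37% of all tested genes, where higher means a larger increase in males. The median was -0.18 over the members and -0.01 over all tested genes. The strongest were Zardc45374 and Zardc48070 in the negative direction and Zardc47642 and Zardc16538 in the positive one. Zardc45374 had 7.58, 7.66 and 8.56 FPKM in M3, against 10.2, 11.4 and 10.4 FPKM in M1, and 17.5, 17.6 and 12.8 FPKM in F3, against 6.59, 6.50 and 6.47 FPKM in F1 (interaction -1.54 ± 0.13, SE; limma adjusted p = 1.96e-07). The M3 libraries were below those of M1 and the F3 libraries above those of F1, with log2 fold changes of -0.38 in M3*vs.*M1 and 1.16 in F3*vs.*F1. In total 91 of the 132 members were called in none of these 6 comparisons among the earlier stages. The share of all tested genes called in none of them was not counted, so nothing about the members is read from this number. The comparisons share libraries of M1, M3, F1 and F3, so their counts are not independent. Against the fold threshold itself, limma called 0 members in the interaction, with 2 at an unadjusted p under 0.05.

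Genes of pathways that the study listed were counted between stages 3 and 4, leaving out the 2 members. Since the study drew up these lists from the same libraries, the counts do not support a direction independently. Of 34 tested MADS-box genes, 13 were called higher and 3 lower in M4*vs.*M3, and 11 higher and 3 lower in F4*vs.*F3, with medians of 0.75 and 0.51 on the log2 scale. Among all tested genes, 4.50% were called higher and 3.22% lower in M4*vs.*M3, and 4.25% higher and 3.40% lower in F4*vs.*F3, with medians of -0.008 and 0. Of 29 tested genes of starch and sucrose metabolism, 10 were called higher and 1 lower in M4*vs.*M3, and 14 higher in F4*vs.*F3. Of 8 genes of galactose metabolism, 5 rose in M4*vs.*M3 and 4 in F4*vs.*F3, and of 49 genes of plant hormone signal transduction 11 rose and 5 fell in M4*vs.*M3, and 3 rose and 3 fell in F4*vs.*F3. Of 5 tested genes of zeatin biosynthesis, 2 fell in M4*vs.*M3, and 1 rose and 1 fell in F4*vs.*F3. Genes called higher in both sexes numbered 7 in the MADS-box list, 6 in starch and sucrose, 3 in the hormone list and 1 in galactose. Over all lists, with a gene of 2 lists counted once, these were 16 of 122 tested genes, 2 of which were Zardc31704 and Zardc02402. No other listed gene apart from the 2 *SEP* members met the thresholds of the selection. Calls in both sexes were not counted over all tested genes, so nothing is read from these joint numbers.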

How the data were processed

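RNA of male and female floral samples at 4 stages was sequenced. The authors aligned the reads to a genome of the species, counted them with HTSeq and deposited FPKM per gene. The submitters' processing notes name Bowtie 0.12.2 and the mouse build mm8, which does not match the species, and the sources used here do not give the aligner for the genome. No scaling beyond FPKM was applied. The 38734 genes (of 50500 above 0) that reached 1 FPKM in 3 or more libraries were fitted with limma 3.58.1 (R 4.3.3) on log2(FPKM + 1), a scale that understates changes of weak genes. All 8 groups entered 1 fit (15 residual degrees of freedom, trended prior of 4.15), and p-values were adjusted by Benjamini-Hochberg within each comparison. The fit was tested on simulated data with normal noise and 200 planted changes, of which 195 were called in M3*vs.*M1 and 198 in M2*vs.*F2. The changes were planted only in genes of higher mean level, so their recovery in weak genes was not tested. Summaries and plots used matplotlib 3.10.9, pandas 2.3.3 and numpy 2.4.6 under Python 3.11.15.

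Members and lists were chosen with earlier results of these data known. Comparisons of stage 4 with earlier stages, and of M4 with F4, defined the members and carry no test. The earlier groups entered the selection as upper limits, so tests among them are not independent of it. Named genes were the members named by the study, the 3 with the highest stage 4 level, the 3 with the widest margin, up to 2 called higher and 2 called lower with the largest change per comparison, those at the thresholds, and those with neighbouring IDs. The members called in the interaction were added. P-values measure the spread between library pools, taken over all 8 groups together. For a comparison among earlier groups this includes the stage 4 libraries, so it is not the spread of the compared libraries alone.

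Libraries with the same replicate number did not deviate together, with correlations of -0.0782 to 0.0905 over 20 such pairs. Alternatives were pseudocounts of 0.1 and 0.5, no filter, quantile normalization, margins of 1 and 2, a test against the fold threshold (limma's treat), a fit of the compared groups alone, a replicate block, and each of the 23 libraries left out in turn.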

Additional observations from a re-analysis of the deposited data

Results flagged for a closer look

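The change between stages 1 and 3 differed between the sexes in 7 members by the interaction test of limma. Of the members, 2 (1.52%) were called higher, against 1.61% of all tested genes, and 5 (3.79%) lower, against 1.37% of all tested genes. Nothing is read from these shares, since the selection limited the earlier levels. The difference, in males minus that in females on the log2 scale, was -1.54 in Zardc45374, -1.36 in Zardc48070, -1.23 in Zardc30748, -1.10 in Zardc37820 and -1.01 in Zardc42680, and it was 1.41 in Zardc47642 and 1.38 in Zardc16538. In Zardc48070, M3*vs.*M1 gave 0.05 ± 0.10 and F3*vs.*F1 gave 1.41 ± 0.10 (SE). In Zardc30748 the male change was -0.58 ± 0.17 and the female change 0.64 ± 0.17, and in Zardc37820 they were -0.64 ± 0.14 and 0.47 ± 0.14 (SE). Zardc42680 increased in both sexes, by 1.18 ± 0.22 in males and 2.19 ± 0.22 in females (SE). Zardc47642 increased by 2.56 ± 0.19 in males and 1.15 ± 0.19 in females, and Zardc16538 by 3.04 ± 0.22 in males and 1.66 ± 0.22 in females (SE). Without F3 replicate 3 the female change of Zardc47642 was 0.92 and was not called. The call of Zardc42680 was lost without any of 7 single libraries (-0.84 to -1.16 over all libraries left out in turn) and that of Zardc37820 without any of 3 (M3 replicate 1, F1 replicate 1 or F3 replicate 1; -0.97 to -1.23 over all libraries left out in turn). The calls of the other 5 held without each single library, and that of Zardc47642 was lost with a pseudocount of 0.1 (adjusted p = 0.167). The call of Zardc42680 was also lost with pseudocounts of 0.1 and 0.5. Against the fold threshold itself 0 of the 7 were called by limma, and 2 members had an unadjusted p under 0.05.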

How the results depend on the processing

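The selection kept 132 members without the filter, 167 with a pseudocount of 0.5 and 124 under quantile normalization, of which 130 and 123 were among the reported members, and leaving out single libraries gave 128 to 136. It moved to 212 with a pseudocount of 0.1, to 318 with a margin of 1 and to 75 with a margin of 2. With a pseudocount of 0.1, the members called numbered 44 in F3*vs.*F1, 9 in M1*vs.*F1, 16 in M2*vs.*F2, 17 in M3*vs.*F3 and 11 in the interaction, which was also 11 with a pseudocount of 0.5. The test against the fold threshold gave 11 in M3*vs.*M1, 9 in F3*vs.*F1, 1 in M1*vs.*F1, 0 in M2*vs.*F2, 2 in M3*vs.*F3 and 0 in the interaction, with 1 and 2 members at an unadjusted p under 0.05 where limma called 0, and it called 30 listed genes in M4*vs.*M3 and 15 in F4*vs.*F3, against 49 and 37 as reported. Without single libraries, 3 to 5 members were called in M1*vs.*F1, 5 to 9 in M2*vs.*F2, 19 to 23 in M3*vs.*M1, 26 to 32 in F3*vs.*F1, 10 to 13 in M3*vs.*F3 and 6 to 10 in the interaction. Where only 1 M2 library was left, it was taken to vary as the other groups do. The change of Zardc48070 in M3*vs.*M1 ranged from -0.035 to 0.154 in the same way.

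With the replicate number as a block, 22 members were called in M3*vs.*M1, 28 in F3*vs.*F1, 3 in M1*vs.*F1, 8 in M2*vs.*F2, 11 in M3*vs.*F3 and 7 in the interaction, the numbers without the block, and the numbers did not pair the libraries. Quantile normalization moved the median of all genes by at most 0.040 on the log2 scale. The cause of the other differences was not tested.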
